A study of Mus musculus with 50 samples.

Results

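The genes described here are 10 plasma lipoprotein genes, namely 9 apolipoprotein genes (Apoa1, Apoa2, Apoa4, Apoa5, Apob, Apoc1, Apoc3, Apoe and Apom) and Lipc, which encodes hepatic lipase. They were chosen by name, by a rule that uses no measured value, and all 10 were among the 12185 genes of the deposited expression table. Liver mRNA of 50 libraries was sequenced from N2 mice, the offspring of F1 hybrids of B6.A4 with B6 that were bred to F1 hybrids of B6.A6 with B6, where B6 is strain C57BL/6J and B6.A4 and B6.A6 are B6 mice that carry Chromosome 4 or Chromosome 6 of strain A/J. Each mouse could therefore carry A/J alleles on those chromosomes alone, always opposite a B6 chromosome, and was B6 elsewhere. The labels describe the mice as adult males of an F2 cross, whereas the study's methods describe N2 mice of 5 weeks that were fasted overnight before the caudate lobe of the liver was taken. The study also reports male and female mice of this cross and scans of expression that included sex as a covariate. The sex of each liver was not examined here. No treatment was given, all libraries form 1 group, and genotypes were not used here. The titles carry a library number and an animal number, and the animal numbers start anew after library 30, so that 28 libraries numbered 1 to 30 and 22 numbered 31 to 59 were treated as sets. Nothing in the labels says what the sets or the animal numbers stand for.

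Apolipoproteins are the protein coat of the particles that carry cholesterol and triglyceride through blood. Apolipoprotein B is the scaffold of very low density and low density lipoproteins, the A-I and A-II proteins shape high density lipoproteins (HDL), and the C and E proteins move between particles and steer lipolysis and uptake. The liver makes most of these proteins, and hepatic lipase, which it also secretes, trims the triglyceride and phospholipid of remnants and HDL.

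The table held between 11965594 and 29976557 counted reads per library, with a median of 13620584. Values are normalized CPM, read counts relative to a library size that the authors scaled across libraries, and 1 read was worth between 0.0317 and 0.0864 of it. The 10 genes took between 2.89% and 4.18% of the summed values of a library, with a median of 3.23%. Each was read at least 1049 times in every library, so that counting error made up at most 3.67% of the variance of a gene between libraries, a share reached by Lipc. That share covers counting error only, since reads copied by PCR are not independent molecules. Library 44 stood apart in how its reads fell on long and short mRNAs, and values without it are given where they change a result.

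None of the 10 genes lies on Chromosome 4 or 6 (coordinates are GRCm38, from the GENCODE M21 annotation). Apoa1 (chr9:46228580-46230466), Apoc3 (chr9:46232933-46235636), Apoa4 (chr9:46240696-46243459) and Apoa5 (chr9:46268633-46271919) stand in a row on Chromosome 9, with 2466 bases between Apoa1 and Apoc3 and 5059 between Apoc3 and Apoa4. Lipc (chr9:70798128-70952226) is on the same chromosome, 24526208 bases beyond Apoa5. Apoc1 (chr7:19689481-19692660) and Apoe (chr7:19696109-19699188) are 3448 bases apart on Chromosome 7. Apoa2 (chr1:171225054-171226379), Apob (chr12:7977648-8016835) and Apom (chr17:35128997-35132050) have no other of the 10 nearby. On the annotation, 34.8% of the exon bases of Apoa4 also belong to Gm10680 on the other strand, which had a mean of 0.334 normalized CPM, and 20.8% of those of Apoa5 belong to Gm47544 on the other strand. The kit marked strand, but whether reads were counted by strand is not given in the sources used here.

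Apoa1, Apoa4 and Lipc formed the pairs with the smallest p once differences between libraries in mRNA length, described further on, were removed, and the reference sequence just before their starts is shown for that reason. The sequences are from RefSeq (GRCm38.p6), cover chr9:46228380-46228579 on the plus strand, chr9:46240594-46240695 on the plus strand and chr9:70952227-70952471 on the minus strand, and stop at the base before the annotated start. They read 5′ to 3′ in lower case, with CCAAT or its complement ATTGG in capitals.
Apoa1: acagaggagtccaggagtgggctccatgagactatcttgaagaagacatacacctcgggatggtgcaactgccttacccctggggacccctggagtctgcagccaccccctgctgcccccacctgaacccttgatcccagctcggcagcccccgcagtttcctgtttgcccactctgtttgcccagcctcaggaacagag
Apoa4: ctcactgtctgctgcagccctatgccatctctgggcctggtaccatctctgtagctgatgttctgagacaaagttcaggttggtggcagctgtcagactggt
Lipc: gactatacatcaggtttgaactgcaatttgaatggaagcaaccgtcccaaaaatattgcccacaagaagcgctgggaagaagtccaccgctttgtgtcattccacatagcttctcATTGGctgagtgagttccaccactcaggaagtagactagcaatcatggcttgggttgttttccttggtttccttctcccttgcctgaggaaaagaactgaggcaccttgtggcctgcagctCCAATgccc
Both strands were searched for 5 motifs in windows from 250 bases before to 50 bases after each start, of which 13 belonged to 8 of the 10 genes. No window was at hand for Apoc1 or Apoc3. CCAAT was in 4 of the 13 windows, for Apoa2 and Lipc, against 37.4% of the 32851 windows of all genes, and TATAAA was in 5 of the 13, for Apoa2, Apoa5, Apob and Apoe, against 13.6%. Overlapping windows of Apoa5 hold the same TATAAA, which was counted in each. CAAAGGTCA, a spelling of the direct repeat that nuclear receptors bind, was in 1 window, another start of Lipc, against 0.478% of all windows. CAAAGTCCA, a spelling of the HNF4 site, was in 0 of the 13 against 0.475%, and TGACGT, the core of the cyclic AMP response element, in 0 of the 13 against 7.51%. With 13 windows, the absence of motifs this rare cannot be told from their share in all genes. The windows of Apoa1 and Apoa4 held none of the 5.

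Levels between genes were compared per kb of merged exon, since longer mRNAs give more reads. Apoa1 led with 6567 ± 1114 normalized CPM per kb (SD, n = 50), followed by Apoa2 with 6384 ± 930 and Apoe with 5568 ± 647. Apoc1 had 3197 ± 486 and Apoc3 had 1007 ± 139. A lower group held Apoa4 with 450 ± 355, Apoa5 with 443 ± 59.7, Apob with 287 ± 53.6 and Apom with 225 ± 31.1, and Lipc was lowest with 51.1 ± 6.62. A paired sign-flip permutation test within libraries asked whether the mean log2 ratio of neighbours was 0 (100000 resamples, 2-sided, 9 neighbouring pairs). By this test Apoa1 and Apoa2 were not told apart (Apoa1 higher 1.03-fold on the log scale and in 29 of 50 libraries, adjusted p = 0.28). Apoa4 had the higher mean but lay below Apoa5 in all but 20 of the 50 libraries (geometric mean ratio 0.798, adjusted p = 0.0291). The other 7 neighbouring pairs each had an adjusted p of 1.29e-05, the smallest that these permutations give, with the higher gene ahead in 41 to 50 of the 50 libraries. With the length of the longest transcript in place of merged exons the order at the top became Apoe, Apoa1 and Apoa2, and with coding length Apoe, Apoa2 and Apoa1, so that the order of these 3 rests on the length used. Coding length also put Apom above Apob and Apoa5 above Apoa4. Without library 24, Apoa5 had the higher mean as well, and Apoa4 was then not told apart from Apob by the same test (adjusted p = 0.123).

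**Figure D1:**
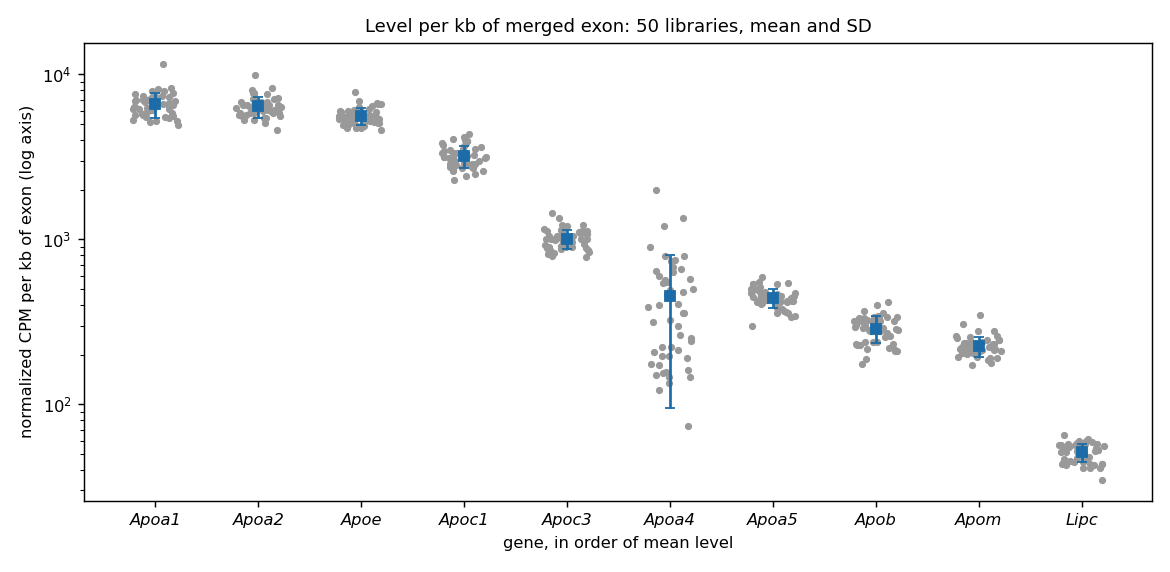
Normalized CPM per kb of merged exon (log axis) of the 10 genes in order of mean level. Grey points are the 50 libraries, squares the mean and bars the SD. Apoa1, Apoa2 and Apoe lie together at the top, Lipc lies lowest at 51.1, and Apoa4 spreads from 73.7 to 1978 where its neighbour Apoa5 spreads from 298 to 593.

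Among the genes for HDL proteins, the mRNA of Apoa1, which encodes the main one, ranged from 6076 to 14375 normalized CPM with a median of 7980 (mean 8116 ± 1377, SD, n = 50). Its highest value was in library 21 and its lowest in library 12, and the middle portion of libraries, between the quartiles, ran from 7144 to 8667. Apoa2, which encodes its partner on HDL, ranged from 2461 in library 47 to 5337 in library 44, with a median of 3393. Apom, a small HDL protein that carries sphingosine-1-phosphate, ranged from 174.7 in library 3 to 349 in library 21, with a median of 220.8.

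Apob ranged from 2448 in library 44 to 5811 in library 47, with a median of 4056. The library with the least Apob was thus the one with the most Apoa2, and the library with the most Apob had the least Apoa2. Apoe, the ligand of remnant uptake, had the narrowest relative range, from 9832 in library 49 to 16759 in library 44 with a median of 11645, a 1.70-fold span. Apoc1, which restrains lipoprotein lipase and remnant uptake, ranged from 1694 to 3242 with a median of 2335. Apoc3, an inhibitor of triglyceride lipolysis and remnant clearance, ranged from 794 to 1467 with a median of 1016, and Apoa5, which promotes lipolysis by lipoprotein lipase, from 751 to 1496 with a median of 1123. Library 21 had the highest Apoa1, Apoa5, Apoc1 and Apom, and library 44 the highest Apoa2, Apoc3 and Apoe. Lipc ranged from 74.7 in library 15 to 141 in library 35, with a median of 112.

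Apoa4 varied far more than the other 9 genes. It ranged from 134 in library 33 to 3591 in library 15, a 26.8-fold span, with a median of 646 and quartiles of 354 and 1073. Its SD on the log2 scale was 1.03, against 0.16 to 0.28 for the other 9 genes. The coefficient of variation of Apoa4 was 79.0%, the 9th highest of the 943 genes with a mean of at least 100 normalized CPM, whose median was 12.8%. Of the other members, Apob had 18.6%, Apoa1 16.96% and Apoe 11.6%, and 9 of the 10 members, all but Apoe, were above that median. Apolipoprotein A-IV is made by intestine and, in mice, by liver, where it rises with fasting and with fat in the liver. The marker genes of intestinal epithelium Vil1, Cdh17 and Muc2 were not in the table, and the summed level of the other two listed, Fabp2 and Lgals4, ran from 43.9 to 112 normalized CPM over libraries.

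**Figure D2:**
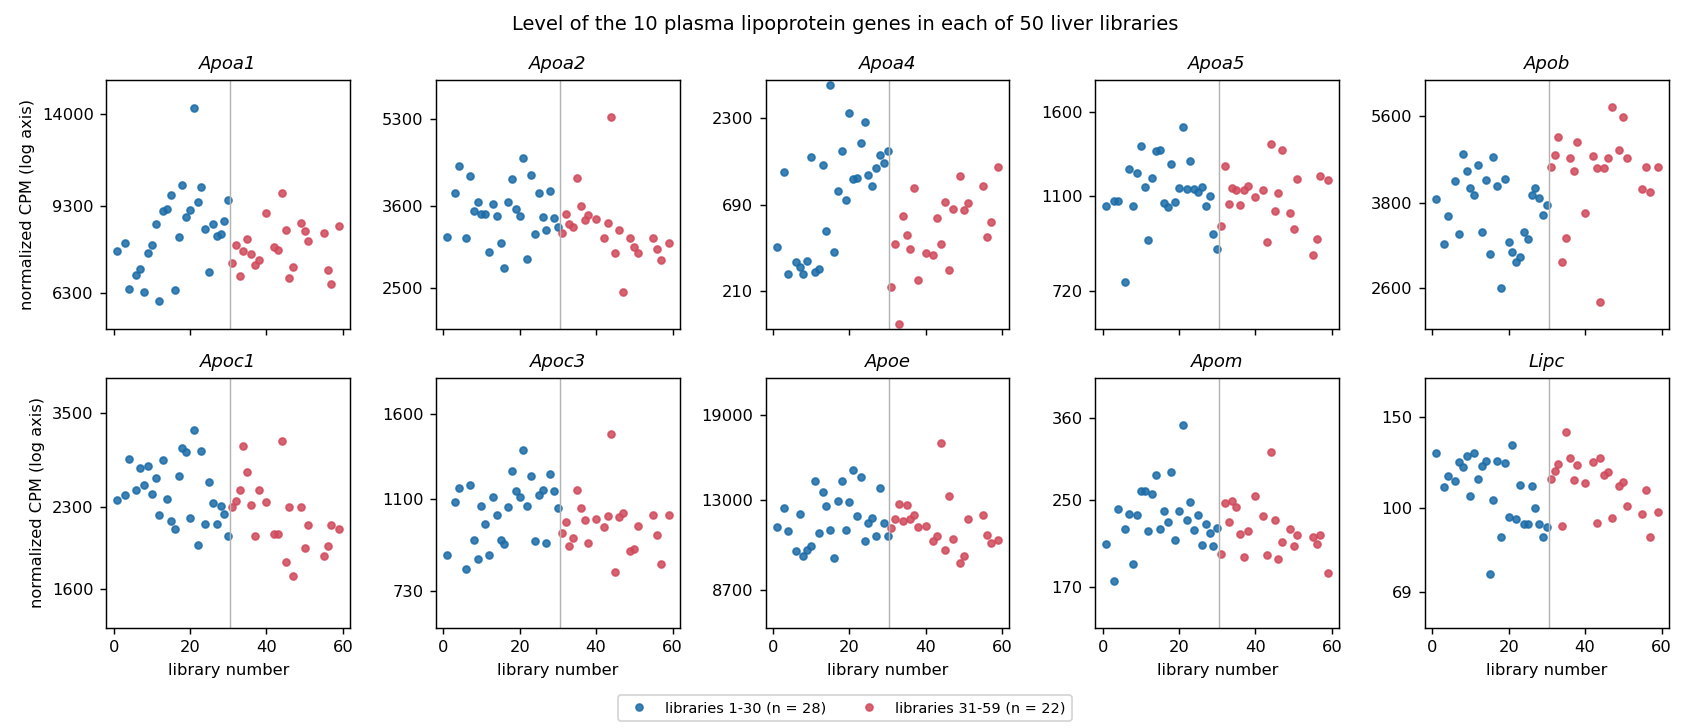
Normalized CPM (log axis, scaled for each panel) of each gene against library number, in blue for libraries 1 to 30 (n = 28) and in red for libraries 31 to 59 (n = 22). Apoa4 spans 26.8-fold, while each of the other genes spans 1.70-fold to 2.37-fold. Library 44 stands high for Apoa2, Apoc3 and Apoe and low for Apob.

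Apoa4 rose and Lipc fell with the number of the animal. Among the 22 libraries with an animal number below 200, Apoa4 ranged from 134 to 1341 with a median of 349, and among the 28 with a number of 200 or more from 282 to 3591 with a median of 989. Lipc ranged from 92.5 to 141 with a median of 119 in the former and from 74.7 to 132.7 with a median of 101 in the latter. The ranges overlapped for both genes, but of the 9 libraries with Apoa4 under 300, 8 had an animal number below 200, and of the 15 with Apoa4 of at least 1000, 13 had a number of 200 or more. Fitted with limma on log2(value + 0.5), the slope of Apoa4 per 100 animal numbers was 1.21 (SE 0.22, adjusted p = 0.000381) and that of Lipc -0.19 (SE 0.048, adjusted p = 0.00631), adjusted by Benjamini-Hochberg over all 11436 genes tested. These were 2 of the 10 members, where 14.2% of all genes tested passed (14% by edgeR), so that the count of members was close to the share of all genes. Within libraries 1 to 30 the slope was 1.34 for Apoa4 and -0.21 for Lipc, and within libraries 31 to 59 it was 0.86 and -0.16.

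The remaining members had smaller slopes, of which that of Apoa1 was nearest to the threshold. Apoa1 had a median of 7550 below animal number 200 and of 8421 from 200 on (slope 0.16, SE 0.059, adjusted p = 0.0504 by limma). It passed in 7 of the 15 settings tried, the length slope as a covariate among them, under which 18.5% of all genes passed, and within the sets its slope was 0.25 in libraries 1 to 30 and 0.03 in libraries 31 to 59. Apoc1 had a slope of -0.13 (adjusted p = 0.114) and passed with the set or the length slope as a covariate. A test of whether slopes differed between the sets called 0 of the 10 members by limma, as against 4 of the 11436 genes tested (0.035%) and 942 at an unadjusted p under 0.05, and edgeR called 1 gene (0.00874%), which was no member. Whether the slopes of Apoa1 differed between the sets is therefore not shown.

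**Figure D3:**
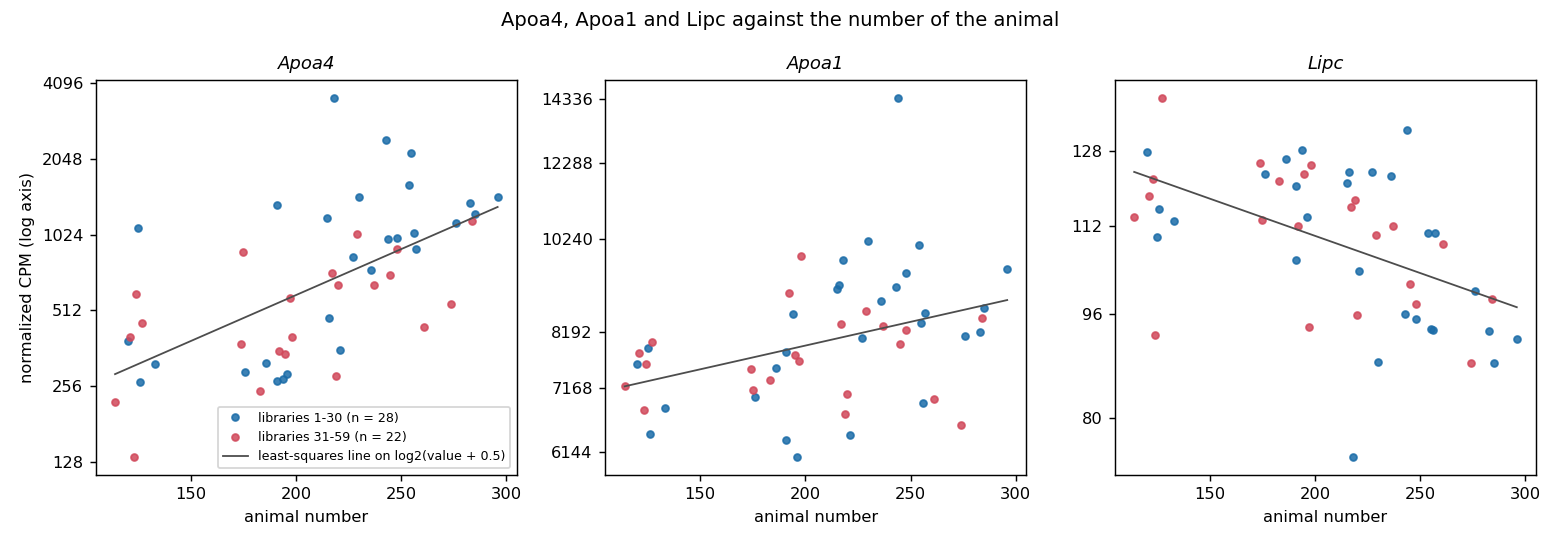
Normalized CPM (log axis) of Apoa4, Apoa1 and Lipc against animal number, in blue for libraries 1 to 30 (n = 28) and in red for libraries 31 to 59 (n = 22), with a least-squares line over all 50. Apoa4 rises by 1.21 on the log2 scale per 100 animal numbers and Lipc falls by 0.19, with wide scatter about both lines.

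Some of the listed cell markers, mainly red cell and hepatocyte genes, also moved with animal number, where 14.2% of all genes tested passed. All 5 hepatocyte markers were in the table, and 2 of them, Alb (slope 0.26) and Ahsg (0.20), rose and none fell. Of the 5 red cell genes, the globin genes Hba-a1, Hba-a2, Hbb-bt and Hbb-bs rose, by 0.64 to 0.74, and Alas2 fell, with a summed level of 94.7 to 302 normalized CPM over libraries. Of 5 stellate cell markers 1 rose, of 5 endothelial markers 1 rose, and of 5 Kupffer cell and 3 cholangiocyte markers none passed. Neither of the 2 intestinal markers in the table, Fabp2 and Lgals4, passed, and their median slope was -0.07. The 5 acinar markers of pancreas (Prss2, Cpa1, Ctrb1, Pnlip, Cel) and the 3 of fat (Adipoq, Plin1, Lep) were not in the table. The part of these cells in the slopes was not tested, and in bulk tissue fewer cells of a type and less RNA per cell cannot be told apart.

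Between the sets of library numbers, Apob was the only member that passed. It ranged from 2601 to 4711 with a median of 3818 in libraries 1 to 30 and from 2448 to 5811 with a median of 4459 in libraries 31 to 59. The difference was 0.23 on the log2 scale (libraries 31 to 59 minus 1 to 30, SE 0.072, adjusted p = 0.0238, limma over 11436 genes), and the ranges of the sets overlapped. That is 1 of 10 members, where 13.5% of all genes tested passed, 7.07% as higher and 6.42% as lower. Apoa4 had a median of 989 in libraries 1 to 30 and of 499 in libraries 31 to 59 (-0.71, adjusted p = 0.0672) and passed by edgeR (-0.91, adjusted p = 0.0141) and DESeq2 (-0.91, adjusted p = 0.00973), with 14.4% of all genes passing by edgeR. Beside it, the intestinal markers Fabp2 (-0.35) and Lgals4 (-0.54) were lower in libraries 31 to 59, as was the stellate cell marker Des (-0.34), whereas the endothelial marker Kdr (0.21) was higher. No hepatocyte, red cell, Kupffer cell or cholangiocyte marker passed, and the part of these cells in the differences of Apoa4 and Apob was not tested. With the length slope of each library as a covariate, which is described next, the difference of Apob was 0.075 with an adjusted p of 0.412, and 0 of 10 members passed, beside 5.57% of all genes. Without library 44, Apob, Apoa2 and Apoc1 passed, and 2440 genes in place of 1542.

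Libraries differed in how reads fell on long and short mRNAs, and most members followed that difference. For each library, the slope of a gene's log2 deviation from its mean over libraries on the log2 length of its exons was taken over 8389 genes that are no members. This length slope ran from -0.228 in library 44 to 0.0990, with a median of -0.0164 in libraries 1 to 30 and of 0.0432 in libraries 31 to 59. Apob, whose 13934 exon bases are the longest of the 10, rose with it (Pearson r = 0.821, Spearman rho = 0.817). The members with exons of 537 to 1014 bases fell with it, Apoa2 with r = -0.808 (rho = -0.716), Apoc3 with -0.806 (rho = -0.741), Apoc1 with -0.736 (rho = -0.663) and Apom with -0.675 (rho = -0.550). Longer members fell as well, Apoa1, of 1236 bases, with r = -0.605 (rho = -0.520). Apoa5, the longest after Apob with 2522 bases, had r = -0.507 (rho = -0.454). Apoe, of 2138 bases, had r = -0.794 (rho = -0.687), whereas Lipc, of 2150 bases, had r = -0.057 (permutation p = 0.697, rho = -0.034). These 2 genes are alike in merged exons only, since their longest transcripts hold 1408 bases for Apoe and 1920 for Lipc. Over the 10 correlations computed, all but those of Lipc and Apoa4 had an adjusted permutation p of 0.000325 or less, and Apoa4 had r = -0.280 with an adjusted p of 0.0548. By rank Apoa4 did fall with it (rho = -0.379, permutation p = 0.0071, not adjusted), and without library 44 its r was -0.384. Leaving out the 2 libraries most distant from the median length slope, r was 0.801 for Apob and -0.692 for Apoe. Within the sets Apob had 0.735 and 0.838, the 7 other members that passed lay between -0.866 and -0.434, and Apoa4 had -0.364 and 0.103.

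**Figure D4:**
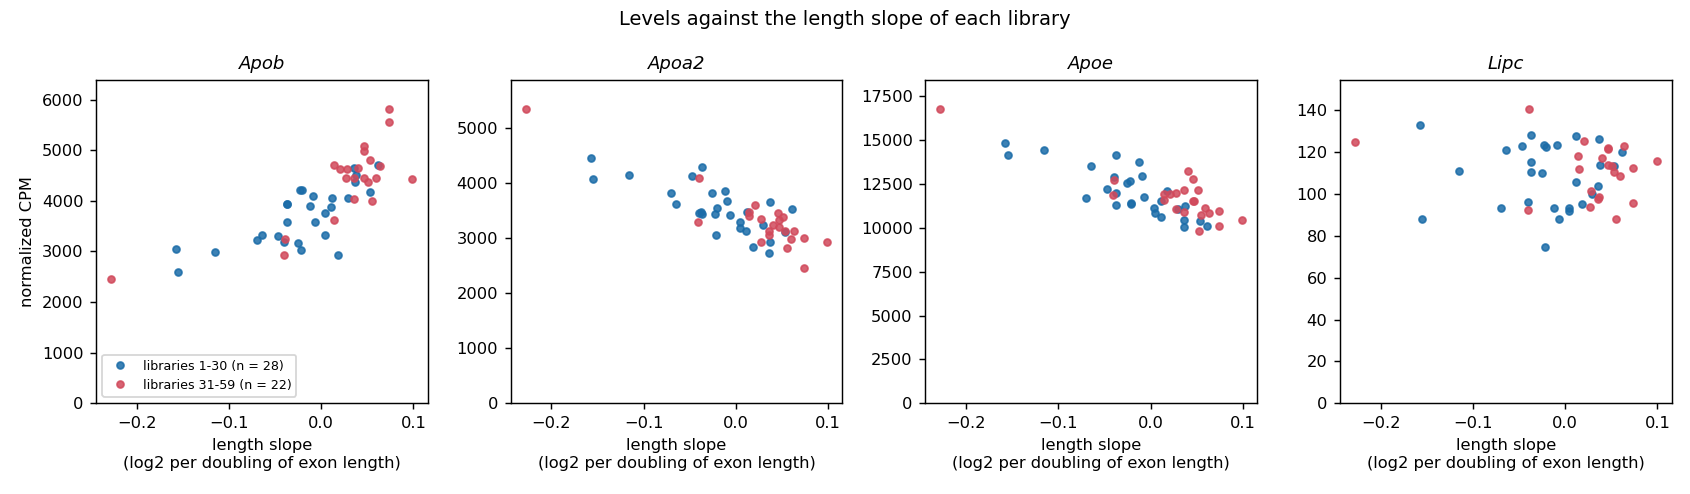
Normalized CPM of Apob, Apoa2, Apoe and Lipc (axes from 0) against the length slope of each library, in log2 units per doubling of exon length, in blue for libraries 1 to 30 (n = 28) and in red for libraries 31 to 59 (n = 22). Apob rises and Apoa2 and Apoe fall along it, while Lipc shows no trend (r = -0.057). The lone point at -0.228 is library 44.

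Over the 50 libraries, 32 of the 45 pairs of members were correlated at an adjusted permutation p under 0.05 (Pearson r of log2(value + 0.5), 100000 resamples, 2-sided), 23 positively and 9 negatively. Among all pairs of the 943 genes with a mean of at least 100, 31% had an r as far from 0 as the weakest of these pairs (20.9% positive and 10.1% negative), and among all genes of mean at least 1 it was 16.9%. The strongest were Apoa2 with Apoc1 (r = 0.801, rho = 0.806), Apoc3 with Apoe (r = 0.744, rho = 0.667) and Apoa2 with Apoc3 (r = 0.739, rho = 0.692), each with an adjusted p of 4.5e-05, the smallest reached here, and within the sets they had r between 0.711 and 0.809. Apob was negatively correlated with 8 of the other 9 genes, from -0.337 with Apoa5 to -0.601 with Apoa2, and with Lipc it had 0.216 (adjusted p = 0.165). The neighbours Apoc1 and Apoe had r = 0.539, and the neighbours Apoa1 and Apoc3 had r = 0.537.

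With the length slope removed from each gene, 9 of the 45 pairs passed, 5 positive and 4 negative, where 19% of the pairs of genes with a mean of at least 100 had an r as far from 0 as the weakest of the 9 (13% positive and 5.99% negative), and 7.61% of those of mean at least 1. The count of member pairs was thus close to the share among genes with a mean of at least 100. None of the 8 negative correlations of Apob passed in this form except that with Apoa4 (r = -0.403, adjusted p = 0.0191), and those with Apoa2, Apoc1, Apoc3, Apoe, Apoa5 and Apom turned to between 0.127 and 0.216. As deposited, Apob with Apoa4 had r = -0.611 within libraries 1 to 30 but -0.034 within libraries 31 to 59. Apoc3 with Apoe dropped to r = 0.289 (adjusted p = 0.151) and Apoc1 with Apoe turned to -0.112. The part of the length slope in the pairs as deposited was not tested beyond this removal.

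The pairs that passed both ways centred on Apoa4 and Lipc. Apoa4 with Lipc had r = -0.629 as deposited (adjusted p = 4.5e-05; rho = -0.598, permutation p = 2e-05) and -0.672 with the length slope removed (adjusted p = 0.000225). Within libraries 1 to 30 this pair had r = -0.701 and within libraries 31 to 59 r = -0.499. Leaving out the 2 libraries most distant from the median of Apoa4 gave -0.563. Both genes also followed animal number within each set, and with set and animal number removed r was -0.497. Library 15, which had the highest Apoa4 (3591), had the lowest Lipc (74.7). The neighbours Apoa1 and Apoa4, 10229 bases apart, had r = 0.581 as deposited (adjusted p = 4.5e-05; rho = 0.658, permutation p = 1e-05) and 0.538 with the length slope removed (adjusted p = 0.000225), with 0.611 and 0.372 within the sets. With set and animal number removed their r was 0.461. As deposited, the 5 libraries with the lowest Apoa4, from 134 to 267, had Apoa1 between 6327 and 7303. The 5 with the highest, from 1445 to 3591, had Apoa1 between 8366 and 10198. These ranges do not separate Apoa4 from animal number, which was below 200 in all of the former and above 200 in all of the latter. Nor was the length slope removed, which ran from -0.0370 to 0.0613 in the former and from -0.155 to 0.00453 in the latter. Apoc3, which stands between Apoa1 and Apoa4 on the chromosome, had r = 0.122 with Apoa4 and 0.105 with Apoa1 once the length slope was removed (adjusted p = 0.587 and 0.619).

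Lipc also went with Apoa2 (r = 0.373 as deposited, 0.556 with the length slope removed) and with Apoc1 (0.408 and 0.542), and Apoa2 with Apoc1 kept r = 0.517 (adjusted p = 0.00127). Apob with Lipc passed with the length slope removed alone (r = 0.461, adjusted p = 0.00431), with 0.424 in libraries 1 to 30 and -0.079 in libraries 31 to 59 as deposited. Apoa4 with Apoc1 (r = -0.524, adjusted p = 0.00108) and with Apoa2 (-0.392, adjusted p = 0.0253) likewise passed in that form alone. Apoa5, Apoc3, Apoe and Apom passed with 0 of their 9 partners once the length slope was removed.

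**Figure D5:**
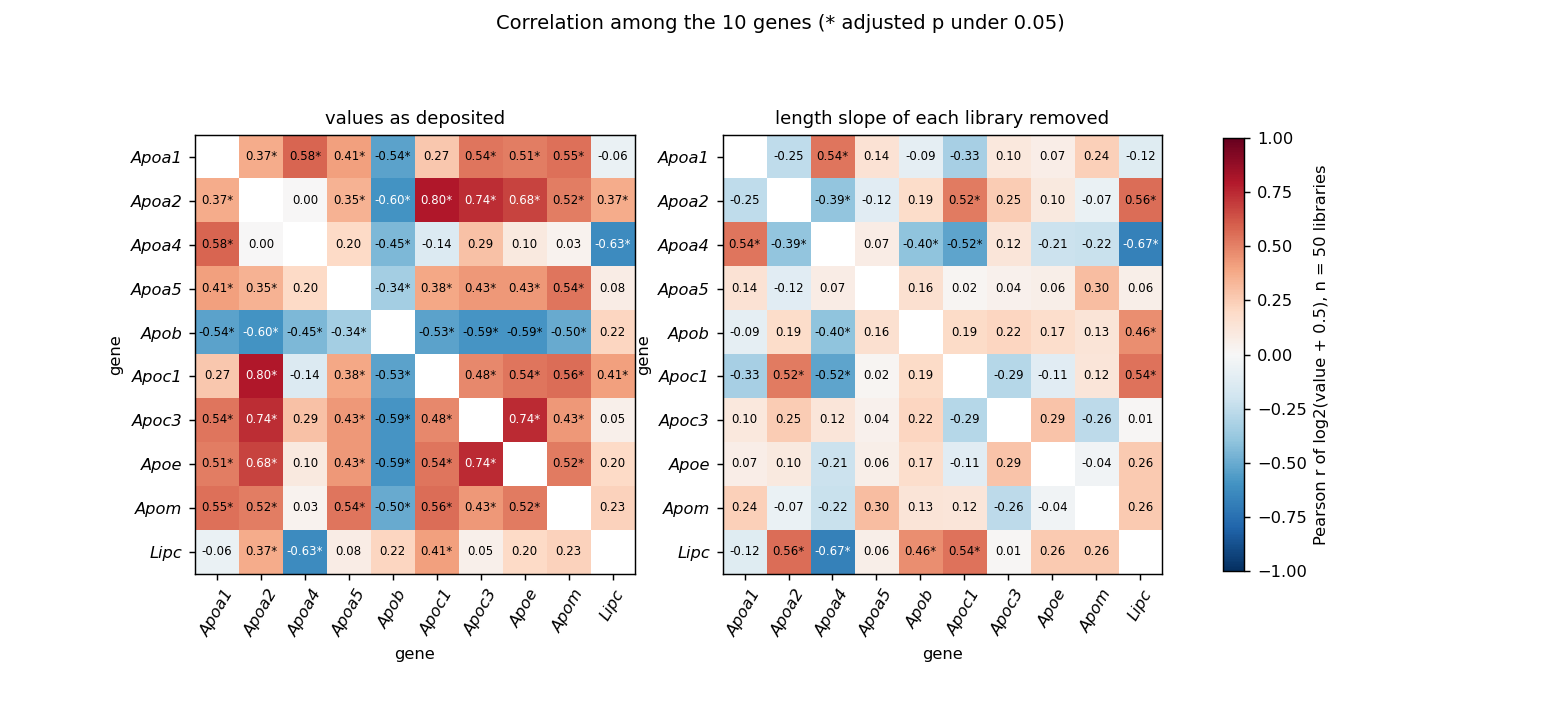
Pearson r among the 10 genes over 50 libraries, with the values as deposited on the left and with the length slope of each library removed on the right; red is positive, blue negative, and a star marks an adjusted p under 0.05. On the left 32 of 45 pairs are starred and the row of Apob is blue, and on the right 9 are starred, most of them in the rows of Apoa4 and Lipc.

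Each member was also set against 14 transcription regulators of liver lipid genes, all 14 in the table. Of the 140 pairs, 41 passed (21 positive and 20 negative), where 28.3% of the pairs of a member and any other gene had an r as far from 0 as the weakest of them (14.8% positive and 13.5% negative), so that the count was close to that of other genes. The 6 with the smallest p involved PPARalpha (Ppara), RORalpha (Rora) and LXRalpha (Nr1h3), lipid-sensing nuclear receptors. They were Apob with Ppara (r = 0.660, rho = 0.623), Apoa5 with Rora (-0.604, rho = -0.622), Apob with Rora (0.604, rho = 0.535), Apoa2 with Nr1h3 (0.573, rho = 0.543), Apoc3 with Nr1h3 (0.574, rho = 0.558) and Apoe with Ppara (-0.564, rho = -0.430), with adjusted p between 0.000933 and 0.00109 for r and a permutation p of at most 0.00201 for rho. All 6 kept their sign within both sets, and with the 2 most distant libraries left out Apoe with Ppara was weakest at -0.412. With the length slope removed, Apoa5 with Rora alone of these 6 passed (r = -0.399, adjusted p = 0.0327), and the others lay between -0.106 and 0.295.

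With the length slope removed 18 of the 140 regulator pairs passed, where 9.73% of the pairs of a member and any other gene were as far from 0, and the following were chosen after their values were seen. Apoa4 fell and Lipc rose with Mlxipl, which encodes the carbohydrate-responsive factor ChREBP (r = -0.492 and 0.471 with the length slope removed, adjusted p = 0.0185 for both). As deposited, Apoa4 with Mlxipl had r = -0.508, and within the sets -0.800 and -0.703. Mlxipl itself fell with animal number (slope -0.33, adjusted p = 0.0185) and was lower in libraries 31 to 59 (-0.34, adjusted p = 0.0184). Creb3l3, a factor that drives Apoa4 in fasted liver, had r = 0.502 with Apoa4 as deposited (0.567 and 0.129 within the sets) and 0.435 with the length slope removed (adjusted p = 0.0185).

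The genes most like each member over the 50 libraries are given as a description, with no test. Apoa4 was closest to Cntnap1 (r = 0.862) and to Cidec (r = 0.860), which encodes a protein that enlarges lipid droplets, on Chromosome 6. The mean levels of these genes were 5.75 and 7.09 normalized CPM, and both kept an r of 0.868 or more with the length slope removed. Lipc was closest to Akr1c6 (0.819), a hydroxysteroid dehydrogenase, and Sord (0.778), the sorbitol dehydrogenase. Apob was closest to Huwe1 (0.924) and the clotting factor gene F5 (0.911), whose merged exons hold 23507 and 7430 bases. The short Apoa2 and Apoc1 were closest to genes of small mitochondrial and other proteins, Apoa2 to Oaz1 (0.884) and Uqcrq (0.883), Apoc1 to Atp5e (0.880) and Tmem256 (0.867). The merged exons of these partners hold 2558, 1831, 1756 and 1105 bases, more than the 537 of Apoa2 and the 744 of Apoc1. Apom was closest to the ribosomal protein genes Rpl6 (0.874) and Rps15a (0.861), which have many pseudogene copies and so may share reads. Apoa1 was closest to Atp5g3 (0.797) and the retinol carrier Rbp4 (0.784), Apoc3 to Stard10 (0.845) and Fxyd1 (0.830), Apoe to Ccdc124 (0.862) and Aup1 (0.856), and Apoa5 to H2-Q10 and Smim20 (0.653 each). With the length slope removed, 73 genes had an r of 0.7 or more with Apoa4 and 66 an r of -0.7 or less, against 27 and 12 for Lipc and at most 6 in either direction for each of the other 8 members.

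Other genes of the lipoprotein pathway were read from 5 lists, 60 of whose 61 genes were in the table and all 60 tested. For animal number, 9 rose and 7 fell, against 7.49% and 6.73% of all genes. Of the 10 genes of lipoprotein assembly 3 rose, namely Tm6sf2 (0.22) and Mttp (0.13), which load apolipoprotein B with lipid, and P4hb (0.12, adjusted p = 0.0499), whose product is the partner subunit of the Mttp protein. Of the 16 receptors and sterol transporters 3 rose, namely Lsr (0.26) and Vldlr (0.46), receptors for triglyceride-rich particles, and Scarb1 (0.17), the HDL receptor. Of the 11 remodelling enzymes and inhibitors Lpl (lipoprotein lipase, 0.53) and Pltp (phospholipid transfer protein, 0.17) rose and Lipg (endothelial lipase, -0.56) fell. Of the 9 other apolipoprotein genes tested Apol9a (-0.52), Apol9b (-0.39) and Saa4 (-0.40) fell. Apol9a and Apol9b are near-identical copies whose reads may be split between them. Of the 14 regulators 1 rose and 3 fell, namely Mlxipl (-0.33), Nr0b2 (-0.60) and Hnf4a (-0.23).

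Between the sets of library numbers 2 of the 60 pathway genes were higher in libraries 31 to 59 and 4 were lower, against 7.07% and 6.42% of all genes. Pon3 (0.12), an antioxidant enzyme of HDL, and Rora (0.21) were higher. Gpihbp1 (-0.17), the anchor of lipoprotein lipase, Apoc2 (-0.43), its activator, Apoc4 (-0.19) and Mlxipl (-0.34) were lower. Apoc2 had a mean of 1.45 normalized CPM and shares 79.5% of its exon bases with the overlapping gene Gm44805, so that its counts are uncertain. With the length slope as a covariate, Apoc2 (-0.58) and Mlxipl (-0.44) passed and Pon3, Rora, Gpihbp1 and Apoc4 did not (adjusted p = 0.0765, 0.532, 0.220 and 0.573 by limma). Of the pathway genes on the chromosomes that segregate, those described here are Apobec1 (the editing enzyme of Apob mRNA, 11.1 ± 1.64 normalized CPM, SD, n = 50), Pon1 (643 ± 65.5) and Pon3 (52.6 ± 4.95) on Chromosome 6, and Abca1 (122.6 ± 30.4) and Nr0b2 (27.95 ± 13.9) on Chromosome 4.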

How the data were processed

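The 50 liver mRNA libraries (TruSeq stranded, paired-end) from N2 mice formed 1 group and carry 48 distinct animal numbers, so that the number of mice may be below 50. The study's methods also give fewer mice with expression data than there are libraries here. After adapter trimming (Trim Galore per the labels, Trimmomatic per the methods), the authors used Hisat2 for alignment to GRCm38.p5 and HTSeq 0.11.1 for gene counts, and edgeR for a filter on low counts and for normalization. The deposited table holds the resulting normalized signal, CPM of a scaled library size. Divided by the worth of 1 read, 100% of the values were whole within 0.01. Those reads ran from 11965594 to 29976557 per library, and 3 reads correspond to between 0.0951 and 0.259 normalized CPM.

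The members and lists were picked by gene name, with earlier results of these data known. limma 3.58.1 was fitted on log2(value + 0.5) over the 11436 genes with a mean of at least 1 (2-sided, Benjamini-Hochberg, threshold 0.05) for the set of library numbers, the animal number and their interaction, without a covariate. Where libraries may be technical repeats of a mouse, p-values measure only the spread between libraries. edgeR 4.0.16 (quasi-likelihood) and DESeq2 1.42.0 on the recovered reads were alternatives. Correlations used 100000 permutations, adjusted over the 45 or 140 pairs, and levels per kb used sign-flip permutations. The length slope was added after seeing the data. The fit was tested on simulated data. The text names the 10 members, for each the 2 genes most like it, pathway genes that passed a test (at most 4 per list and test) or lie on Chromosome 4 or 6, and the 6 regulator pairs with the smallest p. Some pathway genes that this rule names are not reported here. Python 3.11.15 with scipy 1.17.1 and R 4.3.3 were used. Genotypes were not used here.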

Additional observations from a re-analysis of the deposited data

How the results depend on the processing

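Alternatives were other pseudocounts, filters, scalings and tools, covariates, and libraries left out. The length slope as a covariate and the fits without library 44 were chosen after seeing the data. Apoa4 and Lipc passed for animal number in 15 of 15 settings, with slopes of 1.12 to 1.22 (adjusted p 0.000165 to 0.00128) and -0.19 to -0.167 (0.00178 to 0.0128), and the count of members was 4 with the length slope as a covariate, where 18.5% of genes passed. Between the sets, 2 members passed with DESeq2, edgeR, animal number or the 10 highest genes' share as a covariate, plain CPM and the total without the members, 3 without library 44, and 0 with counted reads (Apob 0.226, adjusted p = 0.0575) or the length slope (Apob 0.075, adjusted p = 0.412, and Apoa2 reversed to 0.021) as a covariate. Over all genes the sets differed in 1542, against 889 with counted reads, 637 with the length slope and 2440 without library 44. Plain CPM split the calls into 410 higher and 894 lower, and the total without the members into 395 and 928, in place of 808 and 734. Of the member pairs, 14 passed in libraries 31 to 59, where Apoa2 with Apoa4 had r = -0.284 and Apob with Lipc -0.079, and 9 with the length slope removed. In that form the sign reversed for Apoa1 with Apoa2 (-0.251) and Apoc1 (-0.332), Apoa4 with Apoe (-0.211) and Apom (-0.222), Apoa2 with Apoa4 (-0.392), Apoa5 (-0.116), Apob (0.187) and Apom (-0.070), Apob with Apoa5 (0.162), Apoc1 (0.188), Apoc3 (0.216), Apoe (0.173) and Apom (0.127), Apoc1 with Apoc3 (-0.287) and Apoe (-0.112), and Apom with Apoc3 (-0.258) and Apoe (-0.036). Apoa2 with Apoa4 was -0.019 on untransformed values. Regulator pairs numbered 12 in libraries 1 to 30, 3 in libraries 31 to 59 and 18 with the length slope removed, and Apoc1 with Mlxipl turned to -0.017 in libraries 31 to 59 and to -0.242 without set and animal number. Of the 20 most alike genes, 13 stayed in the first 2 places by Spearman. Fewer libraries enter each set. The cause of the other changes was not tested. No comparison of groups paired by animal was possible because the libraries form 1 group, and pairing was used only between genes within libraries. The depth, at least 1049 reads for a member, limits none of these values as much as the spread between libraries.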

Other observations

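Libraries 8 and 10 carry the same animal number, and so do libraries 22 and 55. Apoa4 was 267 normalized CPM in library 8 and 1341 in library 10, and Lipc was 120 and 106. In libraries 22 and 55 Apoa4 was 993 and 900, Lipc was 95.2 and 97.7, and Apob was 2923 and 4036. The labels do not say whether these libraries came from the same mouse.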
